A study of Caenorhabditis elegans with 8 samples.

Results

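Dosage compensation in Caenorhabditis elegans was examined through the 10 genes sdc-1, sdc-2, sdc-3, dpy-21, dpy-27, dpy-28, dpy-30, mix-1, capg-1 and xol-1. They were taken by sequence name from a table of RNA polymerase II peak calls, and 9 of the 10 are among the 8922 genes that the table lists. Of all 19983 protein-coding genes 29.9% are listed, each of them with a call in at least 1 condition. All 10 sequence names carry these symbols in the RefSeq gene table. Of the 10, xol-1 is the switch gene upstream of the complex and not a subunit of it. dpy-26, which encodes a further subunit, is outside the set and is described beside it.

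The calls come from chromatin immunoprecipitation and sequencing (ChIP-seq) in which polymerase-bound DNA was recovered through AMA-1, the polymerase's largest subunit. The study asked where the polymerase lies in early embryos when sig-7, the gene of a nuclear cyclophilin, is knocked down by RNAi and when it is not. Both conditions used strain KW2309, whose genotype the labels do not give. The control was the vector without an insert, L4440, and the treated embryos had RNAi against sig-7, which the labels describe as sig-7 loss. Mothers were grown for 72 h from synchronised L1 larvae, and embryos were released from them by bleaching. The embryos spanned the 1-cell to the 350-cell stage and were not sorted by stage or sex, per the labels. Each condition had 2 ChIP and 2 input libraries, 8 in all, and the labels do not say whether replicates came from separate cultures.

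Each gene has a single value per condition. It is 1 where both replicates had a peak over the gene and 0 where at most 1 of them did, and a gene not listed was taken as called in neither condition. A call is not an amount of polymerase, and neither the replicates' spread nor the depth is known, so no difference below has a test or an error. A single replicate that crosses the peak threshold is enough to change a call. In these mixed embryos, polymerase on the gene in more cells and more polymerase per cell cannot be told apart.

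In C. elegans, XX hermaphrodites reduce transcription from each X chromosome, so that their total output from X matches that of XO males. The dosage compensation complex does this. Its core is a condensin, a ring-shaped chromosome-organising complex built around a pair of SMC ATPases, which zinc finger and other recruiting proteins load onto the X chromosomes. In XO embryos the switch gene xol-1 represses sdc-2 and so keeps the complex off X, and in XX embryos xol-1 itself is repressed.

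Polymerase was called at 6 of the 10 genes in control embryos and at 9 of the 10 in sig-7(RNAi) embryos. The 6 were called in both conditions, 3 under sig-7 RNAi alone, 0 in the control alone, and 1, sdc-1, in neither. Of all 19983 protein-coding genes in the gene table, 22.8% were called in control (exact 95% interval over genes 22.3 to 23.4) and 23.9% in sig-7(RNAi) embryos (23.3 to 24.5). Calls in both conditions were made for 16.8%, under sig-7 RNAi alone for 7.05% and in the control alone for 6.03% of them. Of the 5973 protein-coding genes called in at least 1 condition, 3360 were called in both, 1409 under sig-7 RNAi alone and 1204 in the control alone. The genes with a call in both conditions encode the condensin subunits, DPY-21 and DPY-30. Those called in sig-7(RNAi) only are sdc-2, sdc-3 and xol-1.

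**Figure D1:**
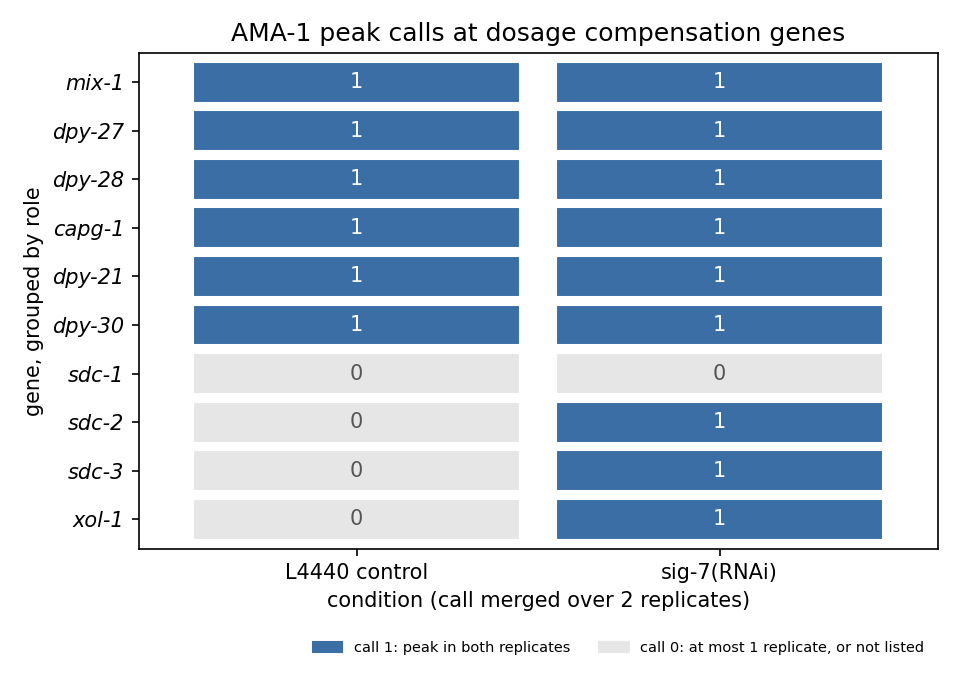
AMA-1 peak calls at the 10 dosage compensation genes (rows, grouped by role) in L4440 control and sig-7(RNAi) embryos (columns); each cell holds the deposited call, 1 or 0, merged over 2 replicates, and a gene not listed is shown as 0. The 4 condensin genes, dpy-21 and dpy-30 carry a 1 in both columns, sdc-2, sdc-3 and xol-1 a 1 under sig-7(RNAi) alone, and sdc-1 a 0 in both.

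All 4 condensin genes were called in both conditions, beside 16.8% of all protein-coding genes. mix-1 (M106.1) encodes the SMC2-type ATPase that is shared by all condensins of the worm, and its call was 1 in control and 1 in sig-7(RNAi) embryos. dpy-27 (R13G10.1) encodes the SMC4-type ATPase that is used in the dosage compensation condensin alone, and it too had a 1 in each condition. The same held for dpy-28 (Y39A1B.3), which encodes a HEAT repeat subunit of the CAP-D2 type, and for capg-1 (F29D11.2), which encodes the CAP-G subunit. Both of these proteins also serve in condensin I, the form that acts on all chromosomes in cell division. dpy-26 (C25G4.5) encodes the kleisin that closes the ring, and its calls were likewise 1 and 1. The genes for all subunits of the dosage compensation condensin therefore had the call in each condition, and none of them differed between control and sig-7(RNAi) embryos.

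Genes for the proteins that bring the condensin to X differed in their calls. Of sdc-1, sdc-2, sdc-3 and dpy-30, 1 was called in control and 3 in sig-7(RNAi) embryos, beside 22.8% and 23.9% of all protein-coding genes. sdc-2 (C35C5.1) encodes the XX-specific protein that starts assembly of the complex on X, and its call was 0 in control and 1 in sig-7(RNAi) embryos. sdc-3 (C25D7.3) encodes a zinc finger protein that acts with SDC-2 in X binding and sex determination, and its call was also 0 in control and 1 with sig-7 RNAi. sdc-1 (F52E10.1) encodes another zinc finger protein of the complex and was not listed. dpy-30 (ZK863.6) encodes a small protein needed for loading of the complex and is also a subunit of the SET1/MLL histone H3K4 methyltransferase complexes. It was called in both conditions, as was dpy-21 (Y59A8B.1), which encodes the histone H4K20 demethylase of the complex.

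The switch gene xol-1 (C18A11.5), which encodes a GHMP kinase family protein that directs male fate, had a 0 in control and a 1 in sig-7(RNAi) embryos. xol-1 and its target sdc-2 thus had the same pair of calls. With only 2 calls per gene, 4 patterns are possible, and many genes share each. The pattern of sdc-2, sdc-3 and xol-1 was that of 1409 protein-coding genes, the pattern of the 6 genes called in both conditions that of 3360, and the pattern of sdc-1 that of 14010. No gene can therefore be named as most like a member.

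A broad peak can call several adjacent genes, so the calls on either side of each member were read in the order of protein-coding genes of the RefSeq table. The members called in both conditions mostly lay in groups of called genes, as did most protein-coding genes with that pattern. Of these 6 genes, 5 had an adjacent gene that was also called in both. This is close to the share over all 3360 protein-coding genes with that pattern, of which 81.9% had one. dpy-28 stood in an unbroken run of 12 protein-coding genes with calls in both conditions, at one end of it. Next to it on that side were tasp-1 and K01G5.10, followed by rnf-113 and hpl-2, the last of which encodes a heterochromatin protein HP1 homologue. On its other side ptr-19 was not listed.

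capg-1 lay inside a run of 7 such genes, between lrp-1, which encodes an LDL receptor-related protein, and F26A3.1. dpy-30 was in a run of 5 and was followed by rnp-1 and ogdh-2, while ZK863.8 before it was not listed. dpy-21 was in a run of 4 with Y59A8B.24, gck-3 and snx-6, and usp-50 on its other side was called in sig-7(RNAi) only. mix-1 closed a run of 3 that began with ech-4 and R06F6.12. VM106R.1, the next gene in the order, was called in sig-7(RNAi) only and lies within mix-1 in the RefSeq table. M106.8 after it overlaps mix-1 and was called in both conditions, so the end of this run depends on how overlapping genes are ordered. Of the members called in both conditions, only dpy-27 had no adjacent gene of its pattern. On one side of dpy-27 toh-1 was not listed, and on the other amx-1 was called in control only. Of its 8 nearest protein-coding genes, 3 were still called in both conditions, namely mtm-3 on the side of toh-1 and cnnm-5 and C36A4.10 beyond amx-1.

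The 3 members called in sig-7(RNAi) only each stood between uncalled genes. None of the 6 adjacent protein-coding genes was called in either condition, namely hpo-34 and C35C5.8 beside sdc-2, melo-3 and fbxa-82 beside sdc-3, and C34D10.1 and C18A11.4 beside xol-1. Of all 1409 protein-coding genes with this pattern, 18.7% had no called gene on either side, and 48.9% had an adjacent gene of the same pattern. The isolation reached furthest at sdc-2, where 0 of the 8 nearest protein-coding genes, 4 on each side, were called. At xol-1, 1 of the 8 was called, the muscle gene dim-1, and in control only. At sdc-3, 4 of the 8 were called in both conditions, the nearest being C25D7.5, 2 genes away on one side, and cng-1, 3 genes away on the other. mcm-3, which encodes a subunit of the replicative helicase, was also among these 4. No gene of these windows shared the sig-7(RNAi)-only call with sdc-2, sdc-3 or xol-1.

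sdc-1 was surrounded in another way. Its adjacent genes ifa-3 and F52E10.2 were not listed, but 4 of its 8 nearest protein-coding genes were called in sig-7(RNAi) only. These were sgk-1, which encodes a serine/threonine kinase, on one side, and F52E10.4 with the potassium channel genes twk-21 and twk-22 on the other. None of the 8 was called in control. sdc-1 itself is absent from the table, as is every protein-coding gene taken as called in neither condition. Whether it is part of the annotation behind the calls is unknown, so its 0 in each condition need not mean that a peak was missing. The same limit holds for all other genes not listed, among them the genes adjacent to sdc-2, sdc-3 and xol-1.

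**Figure D2:**
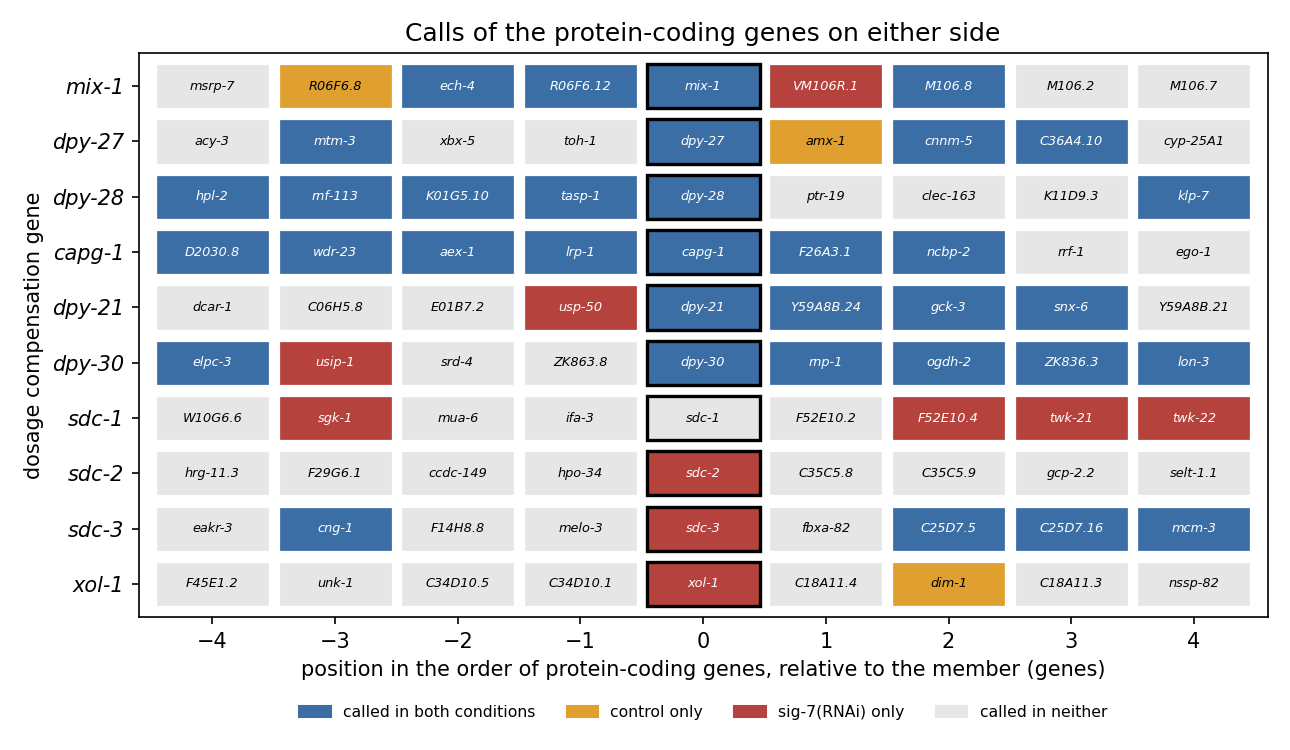
Calls of the 4 nearest protein-coding genes on each side of every dosage compensation gene (rows), by position in the gene order (horizontal axis, in genes, not to distance); the member is the outlined box in the middle and colours give the call pattern. dpy-28, capg-1 and dpy-30 sit in rows with 5, 6 and 5 neighbours called in both conditions. dpy-21, dpy-27 and mix-1 have 3 such neighbours each, sdc-3 has 4, and sdc-1, sdc-2 and xol-1 have 0. No box directly next to sdc-2, sdc-3 or xol-1 is called.

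Most of the other condensin genes were also called in both conditions. smc-4 (F35G12.8), which encodes the ATPase that takes the place of DPY-27 in condensins I and II, was called in both conditions. So were hcp-6 (Y110A7A.1) and kle-2 (C29E4.2), which encode the CAP-D3 and CAP-H2 subunits of condensin II. capg-2 (F55C5.4), for the CAP-G2 subunit of condensin II, was called in sig-7(RNAi) only. With dpy-26, this gave 4 of 5 genes called in both conditions and 1 in sig-7(RNAi) only, beside 16.8% and 7.05% of all protein-coding genes.

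The genes that signal X number, upstream of the complex, and those of the sex determination pathway downstream were called together in 5 of 12 cases in control and in 7 of 12 in sig-7(RNAi) embryos. X signal elements are X-linked genes whose products repress xol-1 in XX embryos. Those matched to the gene table, sex-1 (F44A6.2, a nuclear receptor gene), ceh-39 (T26C11.7, a ONECUT homeobox gene) and fox-1 (T07D1.4, an RNA-binding protein gene), were called in both conditions. The name sex-2, also on the list, had no match, so its call is not known. The autosomal signal elements act in the opposite sense: sea-2 (K10G6.3) was called in both conditions and sea-1 (F19B10.9), a T-box gene, in sig-7(RNAi) only. Downstream, her-1 (ZK287.8), which encodes a secreted male-determining protein and is repressed by the SDC proteins in XX animals, was called in sig-7(RNAi) only. The gene of its receptor, tra-2 (C15F1.3), was called in both, and tra-1, tra-3, fem-1, fem-2 and fem-3 were not listed. Of these 12 genes, 5 were called in both conditions, 2 under sig-7 RNAi alone, 0 in the control alone and 5 in neither, beside 16.8%, 7.05%, 6.03% and 70.1% of all protein-coding genes.

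Genes of complexes that share a subunit or a mark with the members were mixed. In the SET1/MLL complexes, which hold DPY-30, set-2, set-16, ash-2 and cfp-1 were called in both conditions. Their genes wdr-5.1 (C14B1.4), utx-1 (D2021.1) and pis-1 (T13F2.3) were called in sig-7(RNAi) only, and rbbp-5 was not listed. Thus 4 of 8 were called in control and 7 of 8 in sig-7(RNAi) embryos, beside 22.8% and 23.9% of all protein-coding genes. The difference was not tested. set-1, which encodes the H4K20 monomethyltransferase, was called in both conditions, while set-4, which encodes the enzyme for the higher methylation states, was not listed. Of the SUMO pathway genes, whose products modify subunits of the complex, smo-1, uba-2, aos-1 and gei-17 were called in both and ubc-9 (F29B9.6) in sig-7(RNAi) only.

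Cohesin, the other SMC complex examined, had calls on both sides. Of 9 cohesin genes, him-1, smc-3, scc-1, coh-1 and wapl-1 were called in both conditions, scc-3 (F18E2.3) in sig-7(RNAi) only, and rec-8 (W02A2.6) and evl-14 (H38K22.1) in control only. mau-2 was not listed. Over the 6 lists apart from the members, 41 genes were matched, of which 23 were called in both conditions, 8 in sig-7(RNAi) only, 2 in control only and 8 in neither. Among all protein-coding genes these patterns held for 16.8%, 7.05%, 6.03% and 70.1%, in the same order. The members, with 3 genes under sig-7 RNAi alone and 0 in the control alone, can be set beside these 8 and 2, but with counts this small no difference between the members and the other lists was tested.

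**Figure D3:**
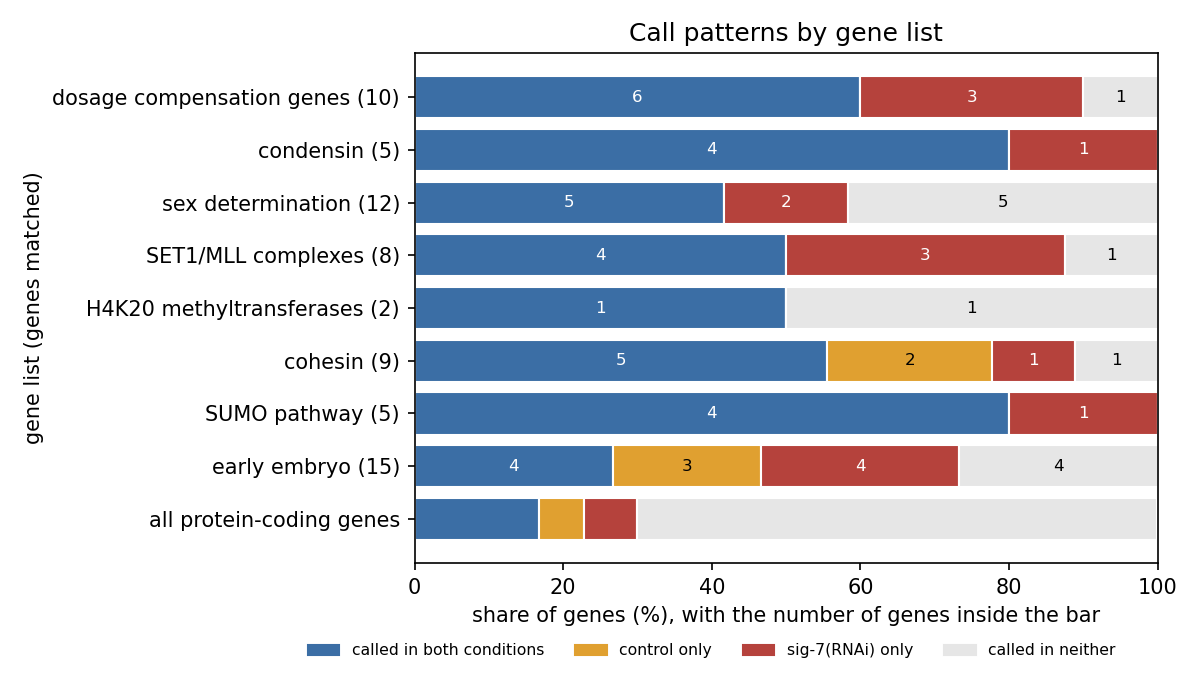
Share of genes (horizontal axis, %) with each call pattern in the dosage compensation genes, the 6 related lists, the early embryo list and all protein-coding genes, with the number of genes inside each bar segment of a list. The 10 members have 6 genes called in both conditions, 3 in sig-7(RNAi) only and 1 in neither, against 16.8%, 7.05% and 70.1% of all protein-coding genes.

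Checks on the series concern genes outside the pathway. ama-1 (F36A4.7) was called in both conditions and sig-7 (F39H2.2) in sig-7(RNAi) only. A polymerase call does not give the level of the transcript, so the extent of the knockdown is not known from these data. Of 15 genes active in early embryos, 4 were called in both conditions, namely nhr-2, pal-1, vet-2 and hlh-1, another 4 under sig-7 RNAi alone and 3 in the control alone. The other 4, namely pes-10, med-1, end-1 and end-3, were not listed. Among all protein-coding genes the shares of these patterns were 16.8%, 7.05%, 6.03% and 70.1%, in the same order. The differences in this list, with elt-1, pha-4 and ceh-27 called in control only and med-2, vet-6, tbx-11 and ceh-51 in sig-7(RNAi) only, stand beside those of sdc-2, sdc-3 and xol-1. The stage make-up of each sample is not in the data, and its part in the calls was not tested.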

How the data were processed

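The deposited values are 0 or 1 calls per gene and condition, and the authors' table merges the 2 replicates. MACS2 made the peaks with its broad option and a cutoff of 0.01, per the file headers, and a gene was assigned to a peak that overlapped it by at least 250 bp or 45% of its length. A long gene can thus be called from a peak over a small part of it. The submitters' processing notes name Bowtie 1.0.1 and the build ce10. Not given in the sources used here are the version of MACS2, whether peak calling used the inputs, and which gene annotation was used. Depth is unknown.

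Ignoring case, sequence names were looked up among RefSeq locus tags (WBcel235), which matched 8824 of 8922 names and left 98. As the builds differ, that table gave only symbols, kinds of gene, gene order and, for mix-1 and the closing observations, which genes overlap a member in it. Such overlaps may differ in the build of the calls. Genes were sorted into called in both conditions, control only, sig-7(RNAi) only and neither, and the 4 nearest protein-coding genes on each side were read. Shares of all protein-coding genes have exact (Clopper-Pearson) 95% intervals, which treat genes as units and cover no replicate error. The neighbour counts were checked on simulated calls. The members and the 7 gene lists were chosen with earlier results of these data known. Of the listed names, 2 (sex-2 and pqn-85) had no match. The text names all members, the adjacent protein-coding genes and the list genes. For a list of over 10, up to 6 in list order were planned, but all are named. The further genes of those lists were added, and neighbours further away were chosen, after their calls were seen. Python 3.11.15, pandas 2.3.3 and SciPy 1.17.1 were used.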

Additional observations from a re-analysis of the deposited data

How the results depend on the processing

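The calls already merge the replicates, so leaving out a replicate could not be run, nor could another peak threshold or overlap rule. No paired analysis was possible because the table gives 1 merged call per condition. With dpy-26 added, the share of members called in control was 63.6%, and without xol-1 it was 66.7%, against 60% for the 10 genes. In sig-7(RNAi) embryos the shares were 90.9% and 88.9%, against 90%. Matching with case kept changed no member's call. The number of members with an adjacent gene of the same pattern was 5 of the 9 called members, with protein-coding neighbours and with neighbours of any kind. The background moved with the genes counted: over all 46926 genes of the gene table, 14.4% were called in control and 13.9% in sig-7(RNAi) embryos, against 22.8% and 23.9% of protein-coding genes. A call of 0 may hide a peak in 1 replicate.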

Other observations

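Some genes lie within a member in the RefSeq table, whose build is not that of the calls, and have calls of their own. Within mix-1, the small nucleolar RNA gene M106.6 was called in both conditions, like mix-1, whereas the protein-coding gene VM106R.1 was called in sig-7(RNAi) only. M106.8, which overlaps the other end of mix-1, was called in both conditions. Within dpy-21, both of the ncRNA genes there were called in both conditions, and within capg-1 so was the piRNA gene 21ur-12960 (F26A3.10). Within sdc-2, the antisense RNA gene anr-16 (F29G6.5) was not listed, although sdc-2 itself had a call under sig-7 RNAi. Calls were listed for 5 of the 100 antisense RNA genes known to RefSeq, and whether anr-16 is in the annotation behind the calls is not given in the sources used here. Of the small nucleolar RNA genes 34.4% were listed, of the ncRNA genes 17.5%, of the piRNA genes 5.59% and of the protein-coding genes 29.9%. ChIP reads carry no strand of transcription, so a call over overlapping genes need not come from each of them.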
